A study of Mus musculus with 20 samples.

Results

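The Hox genes of the mouse were followed through 20 RNA libraries of subcerebral projection neurons, the cortical neurons whose axons grow to the brainstem and spinal cord. All genes of the table whose symbol is Hox, a cluster letter from a to d and a number were taken, which gave 39 of 55487 genes. They comprise 11 Hoxa, 10 Hoxb, 9 Hoxc and 9 Hoxd genes and fall into 13 paralog groups. The mice were at postnatal day 1. WT growth cones and growth cones labelled Bcl11b KO (Bcl11b-null) came from brainstem and spinal cord, and WT somata and somata labelled Bcl11b KO came from cortex, with 5 libraries in each of the 4 groups, named below by the experiment number in their titles. The comparisons ask what the growth cone dissections hold that the cell bodies do not, and what changes without the transcription factor Bcl11b. The labels give no strain, Cre line or allele, and they do not say whether the libraries of a group came from separate animals, so p-values measure only the spread between these libraries.

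Hox genes encode homeodomain transcription factors that give cells their position along the head to tail axis. Within a cluster the genes stand in the order of their paralog numbers, and genes of higher number are as a rule switched on later and farther towards the tail. In the central nervous system they are expressed in the hindbrain and spinal cord, where they pattern motor neurons and interneurons, while the forebrain, including the cortex, lies outside their domain. Pbx and Meis proteins are their DNA-binding partners, retinoic acid is an inducer of the genes at the head end of each cluster, and Polycomb and Trithorax complexes keep their off and on states.

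All of the genes of a cluster lie on a single strand in the coordinates of the deposited table, which are those of GRCm38. The Hoxa genes occupy chromosome 6 from 52155590 to 52260880 on the minus strand, the Hoxb genes chromosome 11 from 96194316 to 96368256, the Hoxc genes chromosome 15 from 102921103 to 103036852 and the Hoxd genes chromosome 2 from 74668310 to 74765142, the last 3 on the plus strand. The exon lists of 39 of 39 members equal those of GENCODE M21, although the submitters' processing notes name GRCm39.

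Paralogs share the homeobox, the 180 coding bases of the homeodomain, and this bears on whether a read can be told apart between them. A homeobox was found in 39 of 39 members. Among the 42 pairs of the same paralog group identity ran from 67.2% to 93.9%, with a median of 80.6% and a longest identical run of 47 bases. Hoxa5 had the highest level per kilobase of exon in growth cones, and Hoxd13 was not detected. Their homeoboxes are shown to give the range. They were read from GENCODE M21 transcripts (GRCm38), 5′ to 3′ on the coding strand, and capitals mark bases that differ from Hoxa5.
Hoxa5 (chr6:52202632-52202811, minus strand): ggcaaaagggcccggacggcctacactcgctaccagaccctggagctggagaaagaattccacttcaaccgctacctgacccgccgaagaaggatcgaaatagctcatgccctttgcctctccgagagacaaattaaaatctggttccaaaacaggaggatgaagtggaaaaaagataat
Hoxd13 (chr2:74669930-74670109, plus strand): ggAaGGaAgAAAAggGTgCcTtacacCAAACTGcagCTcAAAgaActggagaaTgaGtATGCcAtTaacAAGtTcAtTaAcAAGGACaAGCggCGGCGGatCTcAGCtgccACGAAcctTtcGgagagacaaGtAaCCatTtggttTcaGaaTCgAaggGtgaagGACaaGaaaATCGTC
Hoxd13 differs from Hoxa5 at 88 of these bases. Words of 50 bases shared between members were counted only for genes with no exon bases in common. That leaves out Hoxd3 with Hoxd4 and Hoxc5 with Hoxc10, whose overlap is given below. Between the remaining pairs no more than 3 words recurred: Hoxa6 and Hoxb4 share 3, and Hoxb9 and Hoxc9 share 1. The read length is not given in the sources used here.

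Total counts were 21657575 to 29323028 in growth cone libraries and 18962308 to 51205154 in soma libraries. Bcl11b went against the soma labels, with 1082 ± 53.6 CPM (counts scaled to 1000000 per library; SD, n = 5) in somata labelled KO and 655 ± 122 CPM in WT somata. A two-sided exact permutation test gave p = 0.00794, and 5 against 5 libraries cannot give less. In growth cones the means were 108 ± 35.3 and 108 ± 20.1 CPM (exact permutation p = 0.905). Bcl11b reads outside the deleted part would not show the deletion, and the labels do not say which part that is. The genotype is therefore given as labelled throughout. Of the 12 cortical projection neuron markers all were detected in each group, at a summed level of 1441 to 2197 CPM in growth cones and 2100 to 2501 CPM in somata.

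Growth cone libraries held Hox RNA from all 4 clusters, and somata held almost none. Summed over the 39 genes, 31818 counts fell on Hox genes in the 5 WT growth cone libraries and 33670 in the 5 labelled KO. The 5 WT soma libraries held 44 Hox counts in all, or 0.280 CPM over the pooled libraries (exact Poisson 95% interval 0.204 to 0.376), and the 5 labelled KO held 27, or 0.127 CPM (0.0838 to 0.185). These intervals cover counting error only, since the libraries carry no molecular identifiers in the protocol. No Hox gene had more than 4 counts in any soma library. A gene with 0 counts in all WT somata or in all somata labelled KO could still be present at up to 0.0191 or 0.0141 CPM, the value of 3 counts over the 5 libraries.

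**Figure D1:**
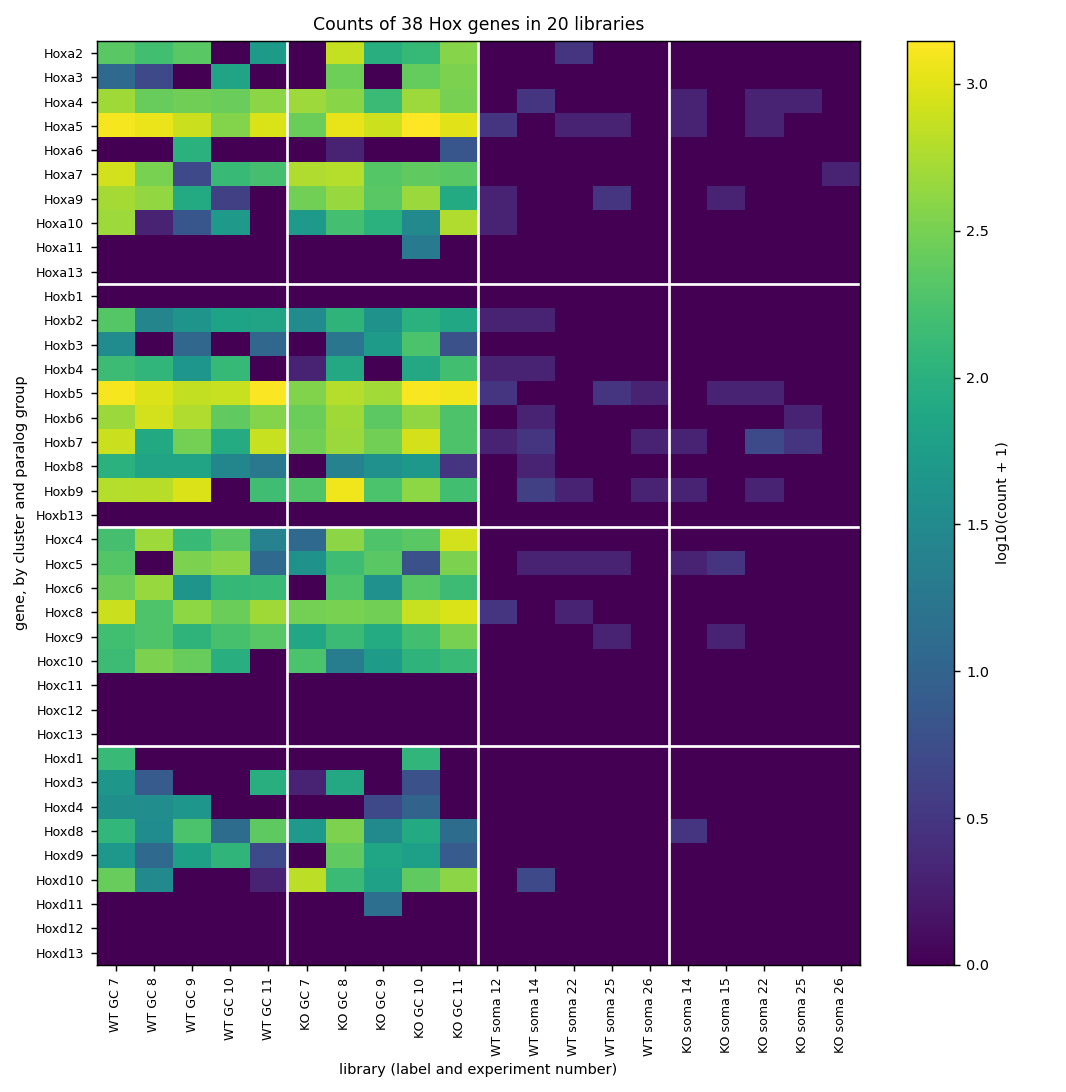
Counts of 38 of the 39 Hox genes (rows, by cluster and paralog group) in the 20 libraries (columns) as log10(count + 1). The 10 growth cone libraries hold up to 1402 counts of a gene, the 10 soma libraries at most 4, and of the 9 genes of paralog groups 11 to 13 only Hoxa11 and Hoxd11 have a count, each in 1 library.

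The detection followed the paralog number. In growth cones 31 of the 39 genes had at least 1 count in some library, and 27 had at least 10 counts in 3 or more of the 10 libraries. All 27 belong to paralog groups 1 to 10, which have 30 genes. The remaining 3 are Hoxb1, with 0 counts in all 20 libraries, Hoxa6, with 100 counts in WT growth cone 9 and at most 6 elsewhere, and Hoxd1, with counts only in WT growth cone 7 and growth cone 10 labelled KO. Of the 9 genes of groups 11 to 13, 7 had 0 counts in all 20 libraries. The exceptions were Hoxa11, with 19 counts in growth cone 10 labelled KO, and Hoxd11, with 13 counts in growth cone 9 labelled KO. In textbook terms, groups 11 to 13 mark the lowest levels of the cord, and Hoxb1 a single segment of the early hindbrain.

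The mean level per kilobase of exon, which allows genes to be compared, was highest in paralog group 5. Summed over its 3 genes it was 32.1 ± 7.2 CPM per kb in WT growth cones and 33.3 ± 15.4 in those labelled KO (SD, n = 5). Paralog group 4 stood at 12.1 ± 3.1 and 15.7 ± 7.8 CPM per kb, group 6 at 13.1 ± 6.5 and 8.6 ± 3.9, and group 7 at 12.7 ± 10.3 and 16.1 ± 6.9. Group 8 stood at 7.6 ± 3.7 and 9.4 ± 4.6 CPM per kb, group 9 at 11.2 ± 5.8 and 12.9 ± 9.7, and group 10 at 5.4 ± 4.9 and 11.4 ± 8.4. The spreads of groups 4 and 6 to 10 are wide and mostly overlap, so no order is given among them. Group 3 was low, at 0.43 ± 0.35 and 1.8 ± 1.5 CPM per kb. By summed CPM, group 5 was not the highest in growth cones 7 and 8 labelled KO. It had 26.6 CPM against 36.0 for group 10 in growth cone 7, and 77.4 against 84.0 for group 9 in growth cone 8.

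**Figure D2:**
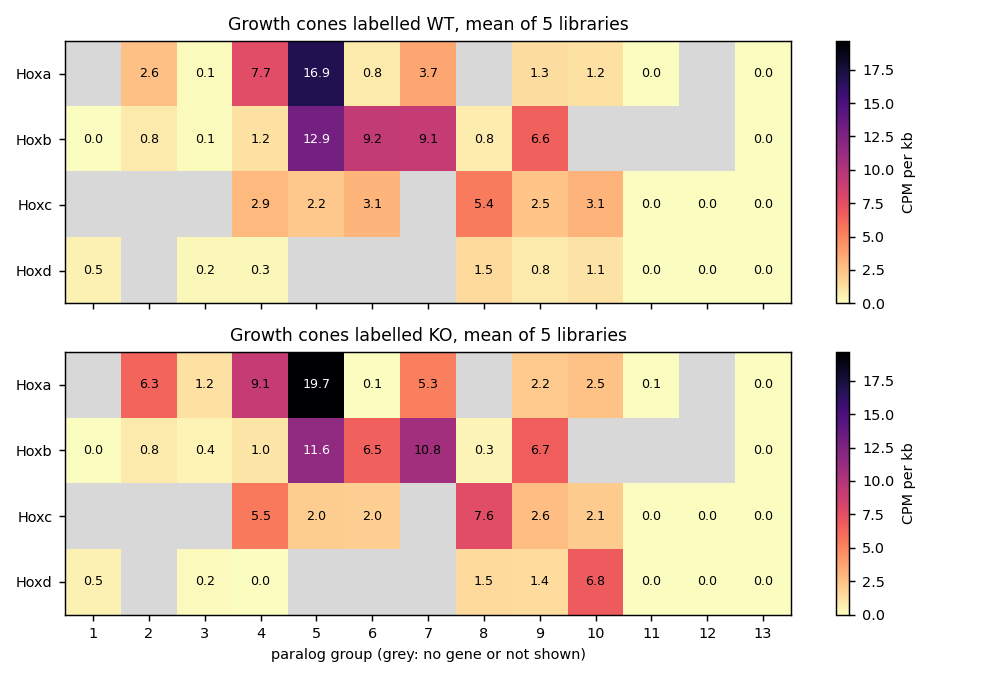
Mean level per kilobase of exon (CPM per kb, n = 5) of each Hox gene by cluster (rows) and paralog group (columns) in WT growth cones (top) and growth cones labelled KO (bottom), where grey marks positions with no gene or a gene not shown. The darkest cells are Hoxa5, at 16.9 and 19.7 CPM per kb, and Hoxb5, at 12.9 and 11.6, and the columns 11 to 13 are at or near 0.

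Hoxa5 led the Hoxa cluster. Its product patterns the neck and the lung and, with Hoxc5, the motor neurons of the phrenic nerve. In WT growth cones 7 to 11 it stood at 44.2, 41.3, 27.8, 13.8 and 31.5 CPM, and in growth cones 7 to 11 labelled KO at 11.1, 45.7, 29.4, 52.0 and 46.3 CPM. Every growth cone library was far above the 10 somata, which held 6 counts in all. The pooled rate was 1252 times that of the somata in WT (exact 95% counting interval 489 to 4597) and 3891 times in libraries labelled KO (1077 to 32139), with edgeR adjusted p-values of 2.53e-06 and 2.71e-06. Hoxa5 entered this test only through its growth cone counts, so these p-values say nothing beyond that.

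Hoxa4, which acts in the cervical region, was the most even of the well-detected Hoxa genes. It stood at 17.6, 9.41, 10.3, 10.2 and 13.5 CPM in WT growth cones and at 19.4, 15.7, 4.94, 18.1 and 14.7 CPM in those labelled KO. Hoxa7, a gene of the trunk, stood at 30.1, 11.8, 0.142, 4.97 and 5.56 CPM in WT and at 23.6, 26.05, 7.54, 8.72 and 10.02 CPM in libraries labelled KO. Hoxa7 was thus well detected in 9 libraries and close to 0 in WT growth cone 9. Hoxa10 is a gene of the lumbar level and the Hoxa member of highest number that passed the detection rule. It stood at 17.1, 0.0365, 0.212, 1.86 and 0 CPM in WT and at 1.99, 6.59, 3.64, 1.15 and 27.4 CPM in libraries labelled KO, so that a single library carried most of each group's counts.

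In the Hoxb cluster the 3 highest genes per kilobase were the neighbours Hoxb5, Hoxb7 and Hoxb6. Hoxb5 stood at 44.9, 34.8, 25.8, 29.2 and 45.4 CPM in WT growth cones and at 13.98, 25.7, 18.7, 48.1 and 55.1 CPM in those labelled KO. Hoxb6 stood at 16.7, 31.5, 20.6, 9.13 and 12.5 CPM in WT and at 11.1, 20.7, 8.15, 15.8 and 8.45 CPM in libraries labelled KO. Both were present in all 10 growth cone libraries. Hoxb7 stood at 27.2, 2.92, 10.9, 3.26 and 25.7 CPM in WT and at 11.95, 19.7, 10.7, 32.4 and 8.404 CPM in libraries labelled KO. Hoxb7 had the most soma counts of any member, 11 over the 10 libraries, and its pooled rate in growth cones was 562 times (219 to 2063) and 514 times (249 to 1280) that of somata in WT and in libraries labelled KO. Hoxb9, a gene of the thoracic level, stood at 22.2, 23.2, 33.8, 0 and 5.22 CPM in WT and at 7.73, 49.3, 6.53, 15.3 and 7.11 CPM in libraries labelled KO. It was among the higher Hox genes in 3 WT libraries and had 0 counts in WT growth cone 10.

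Hoxc8 led the Hoxc cluster and is known for its part in the motor pools of the forelimb level. It stood at 28.0, 6.9997, 14.3, 10.3 and 16.8 CPM in WT growth cones and at 12.2, 13.4, 10.9, 28.4 and 43.0 CPM in those labelled KO. Hoxc4, a cervical gene, stood at 5.77, 17.6, 4.64, 8.30 and 0.818 CPM in WT and at 0.438, 16.4, 6.78, 8.203 and 39.1 CPM in libraries labelled KO. Somata had 0 counts of Hoxc4, so that its pooled rate was at least 382-fold higher in WT growth cones and at least 937-fold higher in those labelled KO, against a floor of 3 counts over the 5 somata. Hoxc10, which with its paralogs gives lumbar motor neurons their identity, stood at 4.997, 12.1, 9.20, 3.52 and 0 CPM in WT and at 7.17, 0.824, 1.95, 4.08 and 6.19 CPM in libraries labelled KO. It too had 0 counts in all somata. Hoxc9, the determinant of thoracic motor columns, was the least variable Hoxc gene in WT, at 5.97 ± 1.36 CPM (SD, n = 5).

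The Hoxd cluster was the lowest, with 4.43 ± 3.61 CPM per kb over its 9 genes in WT growth cones and 10.4 ± 4.79 in those labelled KO. Hoxd10, a lumbar gene, led the cluster per kilobase over the 10 growth cone libraries, but not in WT. There Hoxd8 had 1.47 CPM per kb and Hoxd10 had 1.12, against 1.49 and 6.83 in libraries labelled KO. Hoxd10 stood at 9.08, 1.09, 0, 0 and 0.0341 CPM in WT and at 26.9, 5.77, 2.27, 8.76 and 18.3 CPM in libraries labelled KO. It was at or below 1.09 CPM in 4 WT libraries and above 2 CPM in all 5 labelled KO, and the groups overlapped through WT growth cone 7. Hoxd8 stood at 4.22, 1.20, 6.37, 0.455 and 7.91 CPM in WT and at 1.91, 13.8, 1.08, 3.08 and 0.554 CPM in libraries labelled KO. Hoxd9 stood at 1.65, 0.401, 2.16, 4.28 and 0.136 CPM in WT and at 0, 9.93, 2.60, 2.15 and 0.323 CPM in libraries labelled KO. Growth cone 8 labelled KO held the highest value of both Hoxd8 and Hoxd9, and both groups of each gene overlapped.

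The low-count filter decided which members entered the edgeR test of growth cones against somata. In WT 13 of the 39 members entered it and 13 were called higher in growth cones at a false discovery rate (FDR) of 0.05, where 23.1% of the 15128 genes tested were called higher. In libraries labelled KO 17 entered and 17 were called higher, against 21.6% of 15410 genes. A member could enter only through the growth cone group, where it was high, so the calls say nothing beyond that. The other 26 and 22 members had too few counts in too many libraries to enter. With no filter 24 of 29 members with a count were called higher in WT, against 12% of 27375 genes, and 25 of 31 in libraries labelled KO, against 10.5% of 28166 genes. Every growth cone library was above every soma library for 15 of the 39 members in WT and for 18 in libraries labelled KO, which held for 13.9% and 12.2% of all genes with a count.

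Where both compartments had counts, the pooled rate in growth cones was 81.1 to 2839 times that in somata in WT (17 members, median 533) and 203 to 3891 times in libraries labelled KO (12 members, median 1553). The lowest WT ratio was that of Hoxd10, with 289 growth cone counts and 4 soma counts, all 4 in WT soma 14. Where somata had 0 counts, the lower bound was 19.5-fold to 553-fold in WT (12 members) and 3.94-fold to 1481-fold in libraries labelled KO (19 members). The lowest bounds belong to Hoxb3 in WT and Hoxa6 in libraries labelled KO. For 10 members in WT and 8 in libraries labelled KO neither compartment rose above the floor, and no ratio was formed.

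The summed markers of most other cells were higher in growth cones than in somata. The 13 neuronal markers of hindbrain and spinal cord, with no Hox gene among them, summed to 77.2 to 104 CPM in WT growth cones, 23.7 to 175 CPM in growth cones labelled KO and 0.0676 to 14.8 CPM in somata. One of them is Slc6a5, the glycine transporter of inhibitory neurons, at 8.60 ± 4.96 CPM in WT growth cones and 0.00587 ± 0.0131 CPM in WT somata (SD, n = 5). The low-count filter let in 4 of the 13 in WT, all called higher, where 23.1% of all genes tested were. In libraries labelled KO it let in 7, of which 5 were called higher, where 21.6% of all genes tested were. Markers near 0 in somata could enter only through the growth cones, so these calls, like those of the Hox genes, say nothing beyond that. The 8 astrocyte markers summed to 1675 to 2338 CPM in growth cones and 24.8 to 316 CPM in somata, and the 9 oligodendrocyte lineage markers to 589 to 2378 and 63.9 to 121 CPM. Vessel and blood markers (8 genes) summed to 242 to 562 and 0.284 to 66.2 CPM. The globin genes Hba-a1 and Hbb-bs held most of it, at 213 and 112 CPM of a mean sum of 382 CPM in WT growth cones. Of 7 vessel and blood markers tested in each label only these 2 were called higher, where 23.1% and 21.6% of all genes tested were. The 7 midbrain markers summed to 0.802 to 23.0 CPM in growth cones and 0 to 0.0225 CPM in somata. The 7 microglia markers, which overlapped, summed to 12.2 to 114 and 3.29 to 89.1 CPM. The 5 nuclear-retained RNAs overlapped as well, at 177 to 1272 and 234 to 808 CPM. Among the hindbrain and spinal cord markers 2, Mnx1 among them, were at 0 in WT growth cones, and no marker of that list was at 0 in those labelled KO. The part of these cells in the Hox level was not tested. Fewer cells of a type and less RNA per cell cannot be told apart in bulk libraries.

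The summed Hox level varied between growth cone libraries of the same label. It was 353, 250, 206, 137 and 187 CPM in WT growth cones 7 to 11 and 168, 370, 145, 313 and 370 CPM in those labelled KO, with means of 227 ± 81.6 and 273 ± 109 CPM (SD, n = 5), which differ by less than the spread. The hindbrain and spinal cord marker sum in the same libraries was 99.7, 104, 93.8, 88.1 and 77.2 CPM in WT and 23.7, 98.1, 42.3, 175 and 102 CPM in those labelled KO. The growth cone libraries 7 and 9 labelled KO were the lowest of their group in both measures. Other libraries differed between the measures. In WT the lowest Hox sum was in growth cone 10 and the lowest marker sum in growth cone 11. Among those labelled KO the highest Hox sums were in 8 and 11 and the highest marker sum in 10.

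**Figure D3:**
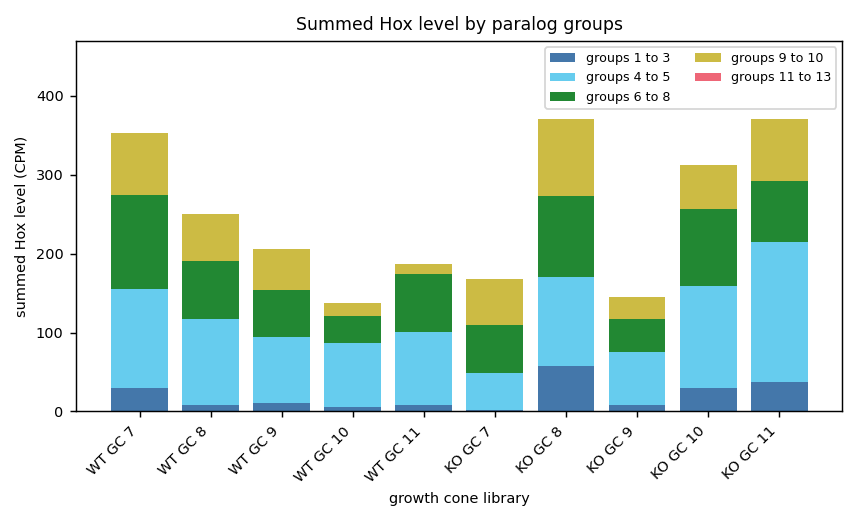
Summed level of the Hox genes (CPM, bars from 0) in each of the 10 growth cone libraries, stacked by paralog groups. Groups 4 to 8 make up most of each bar, groups 11 to 13 are at most 0.705 CPM and cannot be seen, and the total runs from 137 to 370 CPM.

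Most of the Hox signal came from the middle of the clusters. Groups 4 and 5 took 45.6% ± 9.19 of the summed level in WT growth cones and 38.9% ± 9.32 in those labelled KO (SD, n = 5), and groups 6 to 8 took 31.3% ± 5.61 and 28.9% ± 5.59. Groups 1 to 3 took 5.10% ± 1.95 and 8.33% ± 5.43. The share of groups 9 to 13 was 22.4%, 23.9%, 25.3%, 11.8% and 6.76% in WT growth cones 7 to 11, with a mean of 18.0% ± 8.24, and 35.0%, 26.2%, 19.5%, 17.8% and 20.98% in those labelled KO, with a mean of 23.9% ± 6.97. It was lowest in WT growth cones 10 and 11, and the groups overlapped.

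By cluster, Hoxa genes took 24.8% to 40.3% of the summed level in WT growth cones (mean 30.8% ± 6.40) and 36.1% to 43.8% in those labelled KO (39.5% ± 3.15). The Hoxb share was 36.2% to 49.3% in WT (41.8% ± 6.05) and 24.3% to 40.5% in libraries labelled KO (31.9% ± 6.26). The Hoxc share was 15.97% to 35.3% and 13.6% to 33.7%, and the Hoxd share 1.68% to 6.37% and 4.52% to 17.2%. The groups overlapped in all 4 clusters. These shares were not tested, since they are scores over the members.

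Single genes were more erratic than the sums. Of the 27 Hox genes with at least 100 counts in some growth cone library, 15 (55.6%) had 0 counts in another, against 31.4% of the 16807 such genes in the whole table, a background not matched on level. Only 12 members were above 0 in all 10 growth cone libraries, and 11 had at least 10 counts in each, among them Hoxa4, Hoxa5, Hoxb5, Hoxb6, Hoxc8 and Hoxd8. The number of members above 0 ran from 20 in growth cone 7 labelled KO to 29 in growth cone 10 labelled KO. Among the 25 members with a mean of at least 1 CPM in growth cones the median coefficient of variation was 0.825 in WT and 0.811 in libraries labelled KO, against 0.515 over 15875 and 0.572 over 15929 genes with that mean. Above that cutoff this background was not matched on level either. RNA input was 0.19 to 3.1 ng for growth cones and 1.8 to 3.1 ng for somata, per the labels' protocols. The input of each library was not used here, and its part in this spread was not tested.

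In growth cones labelled KO against WT no Hox gene was called. The edgeR test took in 24 members, of which 0 passed at FDR 0.05, and 0 had an unadjusted p under 0.05. Of all 15419 genes tested 0 (0%) were called, 329 had an unadjusted p under 0.05, and the DESeq2 Wald test called 11 genes, of which 0 were Hox genes. The median log2 fold change of the 24 was 0.17, against 0.01 over all genes tested. In somata no member passed the filter, where 0.731% of 14911 genes were called between the labels.

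The lowest p belonged to Hoxa3, a gene of the third pharyngeal arch and the posterior hindbrain. It stood at 0.387, 0.146, 0, 2.58 and 0 CPM in WT growth cones and at 0, 11.5, 0, 9.28 and 15.7 CPM in those labelled KO, so 3 libraries labelled KO were above all WT libraries and 2 were at 0. The log2 fold change was 3.57 ± 2.06 (SE; edgeR adjusted p = 0.999). Next came Hoxd10, with 2.62 ± 1.69 (edgeR adjusted p = 0.999). For the highest genes the estimates were tighter: 0.21 ± 0.45 for Hoxa5, -0.15 ± 0.42 for Hoxb5, 0.27 ± 0.54 for Hoxa4 and -0.49 ± 0.53 for Hoxb6. SEs of the 24 members ran from 0.42 to 2.06 on the log2 scale, so that at this depth and spread a several-fold difference in the least even members was not detectable.

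**Figure D4:**
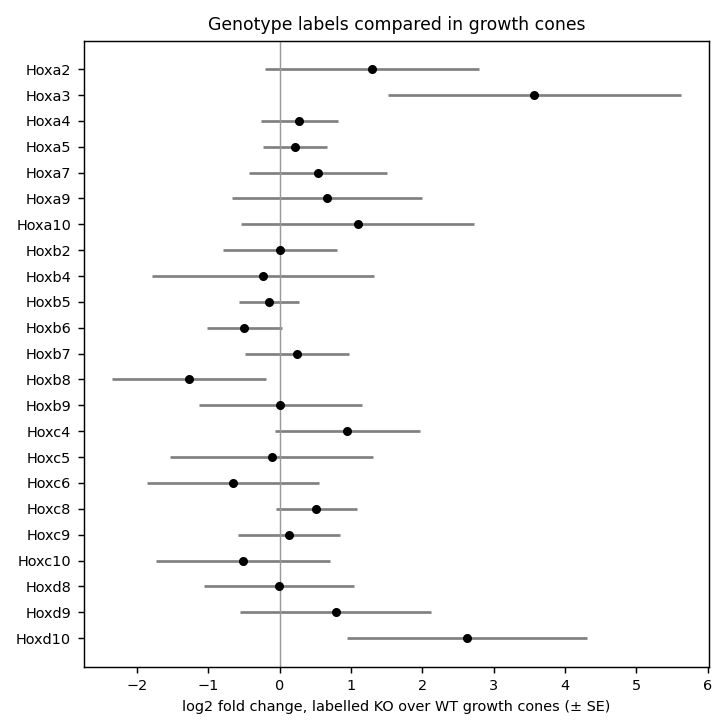
Log2 fold change of growth cones labelled KO over WT growth cones for 23 of the 24 Hox genes tested (points, edgeR; bars ± SE, n = 5 a group). Bars are short for Hoxb5 and Hoxa5 (SE 0.42 and 0.45) and longest for Hoxa3 (2.06), and none of the 24 passed FDR 0.05.

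The overlap of neighbouring exons limits what single counts mean. Of the 39 members 16 share exon bases with another gene of the table, and 23 share none. The share was largest for Hoxd3 (62.8%), Hoxb3 (52.9%), Hoxd4 (52.3%), Hoxa11 (35.0%), Hoxb2 (27.3%), Hoxa3 (27.1%) and Hoxa7 (20.4%), and it was 1.5% to 15.9975% for the other 9. In Hoxb3 all shared bases lie in the antisense gene Hoxb3os on the opposite strand (2250 bases). In Hoxd3 and Hoxd4 most lie in the same-strand gene Gm28230, with 2225 and 1154 bases, and 388 bases are shared between Hoxd3 and Hoxd4 themselves. Hoxc5 and Hoxc10 share 166 bases, 8.7% of the exon bases of Hoxc10. In the SMART-seq v4 and Nextera XT kits the strand is not marked, so reads of a gene and of its antisense partner cannot be told apart in shared bases.

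**Figure D5:**
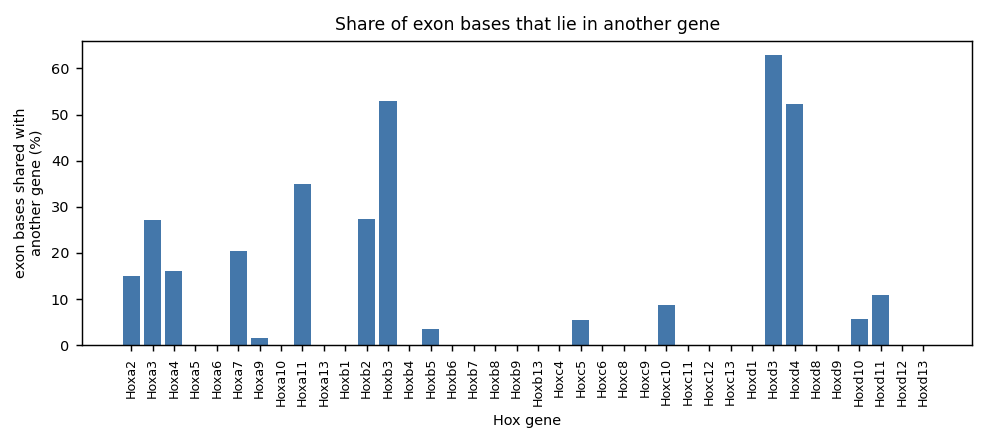
Share of the exon bases of 38 of the 39 Hox genes that lie within exons of another gene of the table on either strand (bars, percent). Hoxd3, Hoxb3 and Hoxd4 exceed 50%, and 23 genes are at 0.

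The setting for reads in shared bases is not given in the sources used here. Within the clusters 12 other genes have no exon base of their own, and all 12 had 0 counts in all 20 libraries. Most of these lie within the spans of Hoxa11os, Hottip or Hotair, which had 0 counts too. For the genes within those spans, 0 counts therefore say nothing about the setting. The 12 also include Gm28308, which shares 267 bases with Hoxa2 and 482 with Hoxa3, both with counts in growth cones. Mir196b is another, and its 85 bases all lie in Hoxa9, which had counts in growth cones too. What the 0 of such genes says about the setting was not tested. Taking only bases of no other gene as the length, the mean level over the 10 growth cone libraries rose from 0.20 to 0.55 CPM per kb for Hoxd3, from 0.27 to 0.56 for Hoxb3, from 0.15 to 0.32 for Hoxd4 and from 0.66 to 0.90 for Hoxa3. Hoxa5, Hoxb7 and Hoxc8 share no base and kept 18.3, 9.92 and 6.51 CPM per kb. These 4 genes of paralog groups 3 and 4 stayed below 1 CPM per kb either way.

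Other genes of the clusters were present in growth cones too. Of 53 such genes within the clusters or 10 kb of them, counting Evx1 as well, 17 had a count in a growth cone library and 3 were above 0 in all 10. Hotairm1, a noncoding RNA on the strand opposite to the Hoxa genes, had 62 to 183 counts per growth cone library and 6 in all somata. Gm27477, a short RNA feature beside Hoxa2, had 50 to 173 and 4. The third, the pseudogene Gm11539 in the Hoxb cluster, had 38 to 83 counts per growth cone library and 139 over the 10 somata. Haglr, which starts beside Hoxd1 on the other strand, and Hoxd3os1, which shares exon bases with Hoxd3 and Hoxd4 on the other strand, reached 197 and 297 counts. The noncoding RNAs of the tail end, Hotair, Hottip and Hoxa11os, had 0 counts in all libraries, as had Evx2 beside Hoxd13. Evx1 had 197 counts in growth cone 9 labelled KO, where Hoxd11 had its 13 counts, and at most 9 elsewhere. The hairpins of Mir10a, Mir10b, Mir196a-1, Mir196a-2 and Mir196b had 0 counts. Of the cluster genes tested in WT 5 of 5 were called higher in growth cones: Hotairm1, Gm27477, Gm11539, 5730596B20Rik and Haglr. In libraries labelled KO 4 of 4 were: Hotairm1, Gm27477, Gm11539 and Hoxd3os1. Of all genes tested 23.1% and 21.6% were called higher. Cluster genes near 0 in somata entered only through the growth cones, as the Hox genes did, while Gm11539 also passed the filter between somata.

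Most of the Hox partner genes were higher in growth cones than in somata. Of 9 Pbx, Meis and Pknox genes, 6 were higher and 0 lower in both labels: Meis1, Meis2, Meis3, Pbx2, Pbx3 and Pbx4 in each, where 23.1% and 21.6% of all genes tested were called higher. The median log2 fold change of the 9 was 0.95 in WT and 1.4996 in libraries labelled KO, against 0.07 and 0.11 over all genes tested. Pbx3 stood at 102 ± 21.2 CPM in WT growth cones and 4.12 ± 2.80 CPM in WT somata (log2 fold change 4.47 ± 0.72, edgeR adjusted p = 0.000386). Meis1 stood at 28.8 ± 17.2 and 0.419 ± 0.513 CPM (5.98 ± 1.19, edgeR adjusted p = 0.00163). The summed level of the 9 was 678 to 1024 CPM in growth cones and 328 to 474 CPM in somata, where the Hox genes together stayed below 0.461 CPM.

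Of 21 retinoid and axial regulators, 16 were tested in WT and 14 in libraries labelled KO. In WT 9 were higher and 0 lower in growth cones, and in libraries labelled KO 8 were higher and 1, the receptor gene Rxrb, was lower, where 23.1% and 21.6% of all genes tested were called higher. The median log2 fold change of those tested was 2.77 and 2.79, against 0.07 and 0.11 over all genes, and members near 0 in somata entered only through the growth cones. Aldh1a2, which makes retinoic acid, stood at 26.9 ± 18.4 CPM in WT growth cones and 0.0402 ± 0.0389 CPM in WT somata (edgeR adjusted p = 2.10e-05). Cyp26b1, which breaks retinoic acid down, stood at 14.95 ± 5.04 and 0.0633 ± 0.142 CPM (edgeR adjusted p = 0.00101). The Cdx genes, regulators of the Hox genes at the tail end of the embryo, had 0 counts in all libraries, as had Cyp26c1.

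Genes of the Polycomb and Trithorax complexes were called at shares close to those of all genes. Of 16 tested in WT 3 were higher in growth cones (Ezh2, Kdm6b and Pcgf2) and 3 lower (Cbx7, Men1 and Rnf2), where 23.1% of all genes tested were higher and 19.7% lower, with a median log2 fold change of -0.08. In libraries labelled KO 3 were higher (Kmt2a, Pcgf2 and Suz12) and 2 lower (Ezh1 and Rnf2), where 21.6% of all genes were higher and 17% lower, with the same median of -0.08. Rnf2, which encodes a ubiquitin ligase of Polycomb complexes, stood at 50.3 ± 25.7 CPM in WT growth cones and 128 ± 10.3 CPM in WT somata. In growth cones labelled KO against WT 0 genes of these 3 lists and 0 of the cell marker lists were called.

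The promoters of the Hox genes held more CG pairs than the median mouse promoter, with exceptions. A RefSeq entry (GRCm38.p6) was found for 22 of the 39 symbols, with 24 promoters. In the 250 bases before the start the median was 12.5 CG pairs, against 6 over 32851 promoters of the mouse, and the median GC content was 58.6% against 52.4%. The count ran from 2 in 1 of the promoters of Hoxd11 and 3 in Hoxa9 and Hoxd4 to 35 in Hoxa13, and promoters of detected and undetected genes were not compared. The motif TATAAA was found on either strand in 16.7% of the 24 promoters and 12.4% of all. Hoxa5 and Hoxa13, the highest and a wholly undetected gene of the same cluster, are shown with CG pairs in capitals.
Hoxa5 (chr6:52204588-52204837, minus strand): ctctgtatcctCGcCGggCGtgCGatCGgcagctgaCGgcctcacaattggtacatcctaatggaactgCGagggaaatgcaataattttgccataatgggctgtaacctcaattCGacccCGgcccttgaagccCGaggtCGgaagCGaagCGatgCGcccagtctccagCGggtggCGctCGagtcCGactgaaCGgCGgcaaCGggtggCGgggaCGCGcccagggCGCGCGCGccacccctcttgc
Hoxa13 (chr6:52260881-52261130, minus strand): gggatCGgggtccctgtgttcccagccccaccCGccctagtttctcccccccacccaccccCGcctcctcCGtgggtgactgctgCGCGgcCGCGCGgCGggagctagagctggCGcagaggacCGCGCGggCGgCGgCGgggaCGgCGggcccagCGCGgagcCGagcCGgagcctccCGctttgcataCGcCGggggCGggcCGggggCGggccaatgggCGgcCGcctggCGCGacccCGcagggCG
Hoxa5 has 28 such pairs and Hoxa13 has 35. Whether the count of CG pairs goes with the level of a gene was not tested.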

How the data were processed

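RNA of 20 libraries was analysed from raw gene counts, deposited by the authors in 1 table. Trimmomatic 0.39, STAR 2.7.1a, featureCounts 1.5.0 and GRCm39 are named in the submitters' processing notes, but the table's coordinates are those of GRCm38, and the exon lists of the members equal GENCODE M21, which gave the symbols (55141 of 55487 genes). Whether strand was used, and what became of reads in more than 1 gene, is not given in the sources used here. The exon length (unit: other, bases) is the deposited length column, per the file headers. The table has 0 rows that name no gene and 0 unmatched columns.

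Libraries were grouped by their titles and are named by experiment number. Differences were tested with edgeR 4.0.16 in R 4.3.3 (filterByExpr with minimum count 10, TMM, quasi-likelihood F test, Benjamini-Hochberg over all genes tested, FDR 0.05), with the 2 groups compared in each fit; SEs come from the F statistics. The procedure was tested on simulated data. Levels are CPM of the library total, per kilobase where genes are compared, with SD over 5 libraries. Bcl11b was tested by exact permutation of log2(CPM + 0.5). Replicates were set against each other with a chi-square test of their counts, and none was merged (lowest chi-square per degree of freedom 56.6). Homeoboxes were located in the M21 transcripts, and promoters came from RefSeq.

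The members and lists were chosen with earlier results of these data known. Any member may be named. Values in every library are given for the 3 members of each cluster highest per kilobase in growth cones, for its highest-numbered member with 10 counts in 3 growth cone libraries, and for the lowest p in growth cones. Hoxd3os1, 5730596B20Rik, Evx1, the antisense genes and the called list genes beyond the 3 of lowest p were named after their values were seen. Alternatives were other scalings, no filter, DESeq2 1.42.0, 1 fit of all libraries, a replicate block, members without exon overlap and leaving out each library. A few single genes and sequences, 1 Hox gene among them, are not reported here, although counts and sums over the lists include them.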

Additional observations from a re-analysis of the deposited data

Results flagged for a closer look

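Summed levels and the members described by library were examined for a single library apart from the other 4 of its group, by the gap to the nearest value over the group's range (critical value 0.71). Of 50 groups tested 8 stood out, each by the highest value of its group. A chance rate of about 1 in 20 holds for independent, normally distributed values. These CPM values are uneven, and sums share counts with their members, so the 8 are not read as an excess. WT growth cone 7 held 29.4 CPM of paralog groups 1 to 3, where the next library held 10.8. The same library held 17.1 CPM of Hoxa10 (next 1.86) and 9.08 CPM of Hoxd10 (next 1.09). WT growth cone 10 held 2.58 CPM of Hoxa3 (next 0.387). Growth cone 8 labelled KO held 49.3 CPM of Hoxb9 (next 15.3), 13.8 CPM of Hoxd8 (next 3.08) and 9.93 CPM of Hoxd9 (next 2.60). Growth cone 11 labelled KO held 27.4 CPM of Hoxa10 (next 6.59).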

How the results depend on the processing

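The count of Hox genes called higher in growth cones was 13 in WT and 17 in libraries labelled KO under each of 3 other scalings and the DESeq2 Wald test. In WT it was 24 with no low-count filter and 25 in 1 fit of all 20 libraries; leaving out 1 library gave 13 to 20 (20 without any 1 soma library), where fewer libraries in the smaller group let more genes through the filter. In libraries labelled KO it was 9 of the 9 tested members with no exon overlap, a smaller set by construction, and leaving out 1 library gave 17 to 20. In growth cones labelled KO against WT 0 were called under every alternative run, replicate block included, and leaving out 1 library gave 0 to 0. In somata no Hox gene entered the filtered test, so that 0 there, 0 to 0 without 1 library and 0 with the replicate block were fixed by the filter; with no filter 19 entered and 0 were called. Experiment numbers shared between labels were used to pair libraries only in the replicate block, and whether they mark pairs was not settled. Correlations of same-numbered deviations were 0.00415 to 0.0964 in growth cones and -0.0461 to 0.0802 in somata. The same-numbered WT library correlated best with growth cones 9, 10 and 11 and somata 14 and 22 labelled KO. It did not for growth cones 7 and 8 or somata 25 and 26. Growth cones and somata share no number.

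The mean summed level was 133 CPM in WT and 150.2 CPM in libraries labelled KO over members with no exon overlap, and 99.4 and 118 in CPM per kb, a change of unit; leaving out 1 library gave 195 to 249 and 249 to 305 CPM. The share of groups 9 to 13 lay at 16.2% to 20.8% and 21.1% to 25.4% when 1 library was left out. At least 10 counts in 3 growth cone libraries were reached by 25 to 27 members when 1 library was left out, an alternative added after seeing the data. The Bcl11b difference in somata lay at 0.65 to 0.81 (log2), and in growth cones at -0.15 to 0.12, without 1 library, turning without growth cone 7 or 8 labelled KO or WT 9. Of 591 values of named genes, 20 changed sign, each of a gene not called between labels in growth cones, and the cause was not tested. Hoxb9 gave -0.032 (upper quartile), -0.0041 (no filter) and -0.050 (1 fit), and Hoxd8 gave 0.017 by library totals. Without 1 library the ranges that crossed 0 were -0.86 to 0.40 for Hoxb9, -1.26 to 0.39 for Hoxd8, -0.13 to 0.64 for Hoxb7, -0.23 to 4.01 for Hoxa10, -0.44 to 0.038 for Hoxb5 and -0.42 to 1.43 for Hoxd9. Hoxa10 turned without growth cone 11 labelled KO, Hoxb5 without 7 labelled KO, Hoxd9 without 8 labelled KO, Hoxb7 without WT 8, WT 10 or 10 labelled KO, Hoxb9 without 8 labelled KO, WT 10 or WT 11, and Hoxd8 without 7, 9, 10 or 11 labelled KO or WT 7, 9 or 11. Over all genes, the median log2 fold change of growth cones over somata moved from 0.07 to 0.28 in WT and from 0.11 to 0.31 in libraries labelled KO under upper-quartile scaling. Between labels the genes called in growth cones numbered 0, 11 by DESeq2 and 7 in 1 fit, and in somata 109, 402 by DESeq2, 30 in 1 fit and 34 with the replicate block.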
